A study of Rattus norvegicus with 8 samples.

Results

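Rab GTPases were followed in NR8383 cells, a rat alveolar macrophage line obtained by lung lavage, after 4 h with zinc oxide (ZnO). The members are the genes whose rat RefSeq transcript on the array carries a symbol made of Rab, a number and at most a letter, and effectors such as Rab11fip proteins are not among them. The array held 70 such probes for 54 Rab genes, out of 39506 distinct genes or accessions. Of these 54, 39 were measured well enough to be tested, against 13460 features tested over the whole array.

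The data came from a pair of groups. The ZnO 16 group was NR8383 cells given 16 µg/mL ZnO for 4 h, with 4 arrays, and its sample descriptions give 200 passages. The ZnO 4 group was NR8383 cells given 4 µg/mL ZnO for 4 h, with 4 arrays, and its descriptions give 20 passages. The series design calls the replicates biological. The dose, the slide, the scan and the passage number all change together between the groups, so they cannot be told apart, and untreated cells were not analysed here.

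Rab proteins are small GTPases that switch between a GDP-bound form held in the cytosol by GDP dissociation inhibitor (GDI) and a GTP-bound form on membranes. Exchange factors load GTP, GTPase-activating proteins end the active state, and a prenyl anchor added by Rab geranylgeranyl transferase with the help of Rab escort protein lets each Rab sit on its membrane. Different Rabs mark different organelles, and in macrophages the handover from Rab5 to Rab7 accompanies the maturation of phagosomes towards lysosomes.

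Values below are log2 signals relative to the 75th percentile of their own array, so 0 is the level of that percentile and a difference of 1 is a doubling. They are given for replicates 1 to 4 in that order, and each difference is ZnO 16 minus ZnO 4 with its standard error (SE) and limma's Benjamini-Hochberg adjusted p over all 13460 features. A gene is said to have risen or fallen at ZnO 16 where that p was below 0.05. The probe signal of different genes is not compared in level.

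The arrays had 41.2% to 47.8% of their non-control spots well above background, a flag set by the scanner software, and no saturated spots. Before scaling, the 75th percentile of log2 signal was 7.24 and 7.57 on ZnO 16 replicates 2 and 3, which stood apart from the 8.55 and 8.57 of ZnO 16 replicates 1 and 4 and the 8.29 to 9.01 of the ZnO 4 arrays. Calls lost when both of these arrays are left out are named below, a comparison added after seeing the data. The markers of the labelled cell type were present. Of 12 macrophage markers, 9 were well above background on all 8 arrays. The list's summed linear level, most of it from Lyz2 (mean log2 7.37 at ZnO 16 and 7.35 at ZnO 4), was 165 to 255 at ZnO 16 and 180 to 235 at ZnO 4. Among the other markers, Cd68 averaged 3.26 at ZnO 16 and 5.00 at ZnO 4, Spi1 averaged 1.74 at ZnO 16 and 0.93 at ZnO 4, and Marco and Adgre1 were well above background on none. None of 6 alveolar epithelial markers was well above background on all arrays, and 4 of them were so on none. Linear level here means the signal as a multiple of the array's 75th percentile. Of 4 fibroblast markers 1 was well above background on all arrays, with a sum of 0.205 to 0.315 at ZnO 16 and 0.270 to 0.499 at ZnO 4, and of 3 lymphocyte markers on the array none was, with a sum of 0.0514 to 0.0837 at ZnO 16 and 0.122 to 0.153 at ZnO 4. The 2 erythroid markers summed to 0.0961 to 0.157 at ZnO 16 and 0.568 to 0.826 at ZnO 4, and the 2 mast cell and granulocyte markers on the array to 0.30 to 0.54 at ZnO 16 and 0.63 to 0.80 at ZnO 4. In each of these pairs 1 marker, Hba-a1 or Camp, was well above background on all arrays, and the part of other cell types in the results below was not tested. A low-signal area covered 2302 non-control spots of ZnO 4 replicate 4 and another covered 686 of ZnO 16 replicate 4. These areas held 2 Rab spots, both on ZnO 4 replicate 4, of which 1 belonged to the Rab11a probe used here and 1 to a Rab34 probe with 10 spots.

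At ZnO 16, 10 Rab genes rose and 4 fell, which is 14 of the 39 tested. Over the whole array 41.7% of tested features passed, 19.8% of all tested being higher and 21.9% lower, so the Rab share, 35.9%, was near the background and slightly under it. The family median was 0.01 on the log2 scale, beside 0.00 for all tested features. Without ZnO 16 replicates 2 and 3, 9 Rab genes rose and 1 fell, 25.6% of those tested, with a median of 0.15. Over all features 34.5% passed then (4641, of which 1789 were higher and 2852 lower), and their median was -0.01. In 14 Rab genes the values of the doses did not overlap, 11 above and 3 below at ZnO 16, against 39.9% of all features. The differences of single members ran from 2.44 for Rab20 to -1.65 for Rab10. In RNA from whole cultures, fewer cells with a transcript and less of it per cell cannot be told apart.

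**Figure D1:**
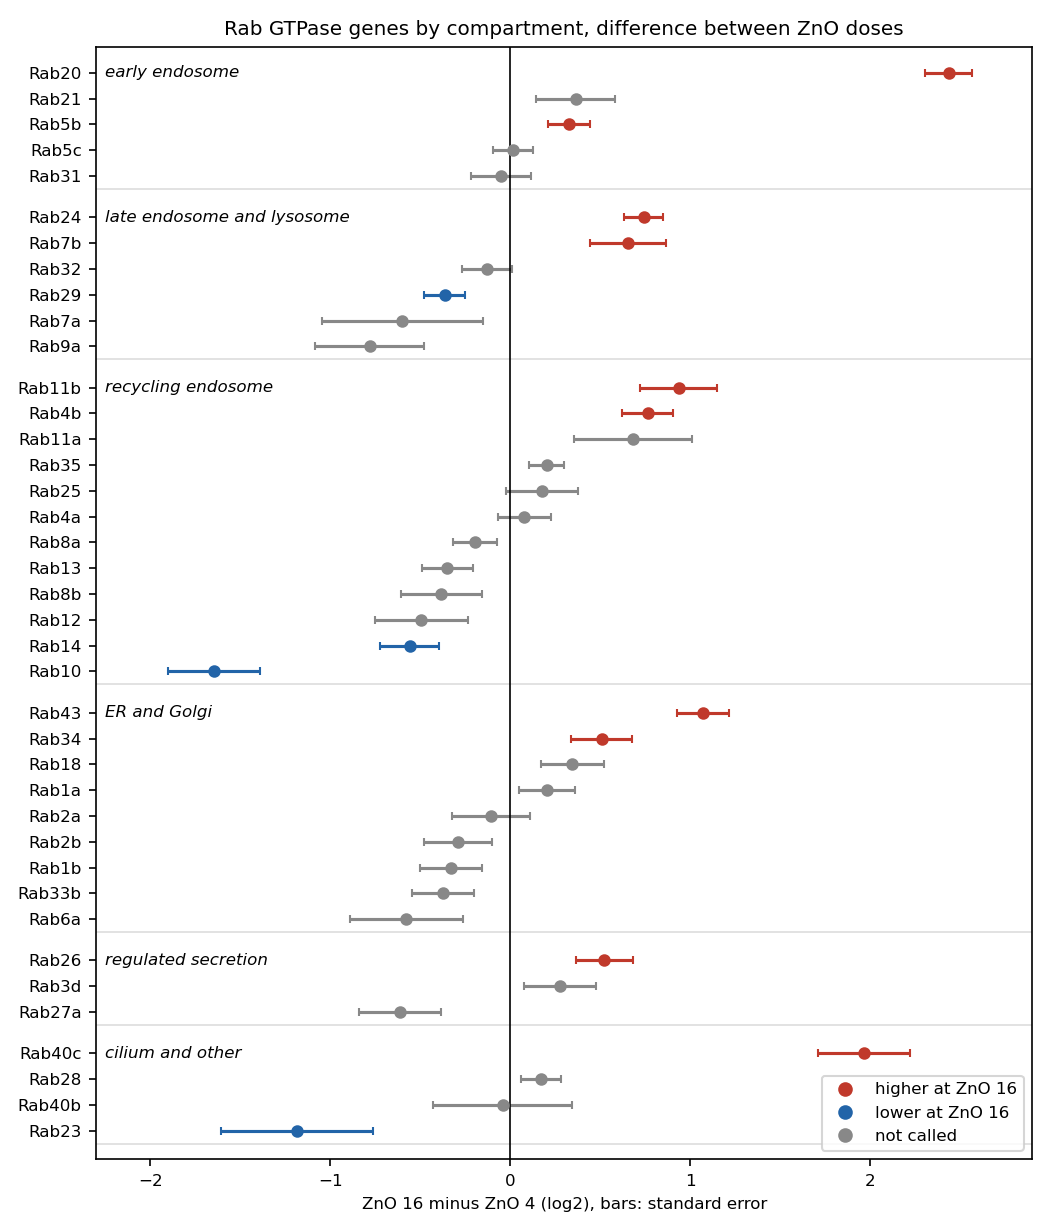
Difference between ZnO 16 and ZnO 4 (log2, x axis) for the 39 tested Rab genes, grouped by the compartment assigned to each here, with bars for the standard error. Red and blue points passed limma's test (10 and 4 genes), and Rab20, Rab40c, Rab43, Rab23 and Rab10 are the 5 that passed and differed by at least 1 in size.

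The direction of the smaller rises depends on what is held constant between arrays. Without any scaling the median of all features was -0.75, and with the array's spike-in probes held constant it was -1.18. An absolute change can thus differ in sign from the relative one reported here. Rab20 and Rab40c stayed above 0 in both of these settings. The genes that fell, Rab10, Rab14, Rab23 and Rab29, stayed below 0, which a downward shift of all genes fixes in advance. The other 8 Rab genes that rose were below 0 with the spike-in probes held constant. The 7 spike-in probes well above background on all arrays themselves differed by -0.68 to 1.62 between the doses on the relative scale. Their differences were -0.68, -0.21, 1.15, 1.19, 1.21, 1.26 and 1.62. Among the 14 Rab genes that passed Rab20 and Rab40c lay above that range and Rab10 and Rab23 below it. The range is not centred on 0, so lying outside it is no test of a Rab difference.

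The early endosome group held the gene that differed most. Of its 6 members on the array 5 were tested, 2 rose and none fell, with a median difference of 0.33. Rab20, which acts on endosomes and on the phagosomes of macrophages, was at 1.86, 1.98, 1.64 and 1.72 at ZnO 16, against -0.72, -0.53, -0.50 and -0.79 at ZnO 4. Every ZnO 16 array was far above every ZnO 4 array, and within a dose the arrays lay close together. The difference was 2.44 (SE 0.13, limma adjusted p = 6.76e-07), a 5.41-fold higher signal, and it stayed between 2.12 and 2.60 in the settings run other than no scaling and spike-in scaling, where it was smaller.

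Rab5b, one of 3 Rab5 forms that drive fusion of early endosomes, was at 1.49, 1.69, 1.48 and 1.32 at ZnO 16, against 1.09, 1.26, 1.18 and 1.13 at ZnO 4. The doses did not overlap, but the gap was small: 0.33 (SE 0.12, limma adjusted p = 0.0436). That call rested on almost the full set of arrays, since it was lost when any single array other than ZnO 16 replicate 4 was left out. With median scaling it was 0.49, and without ZnO 16 replicates 2 and 3 it was 0.24 (limma adjusted p = 0.174). Rab5c, the second form, differed by 0.01 (SE 0.11, limma adjusted p = 0.926). Rab5a, the best studied form, had a probe that was well above background on none of the 8 arrays, with values of -5.96 to -4.67, so it was not tested. Rab21, which traffics integrins, was at -0.87, -1.65, -1.22 and -0.79 at ZnO 16, against -1.33, -1.78, -1.22 and -1.65 at ZnO 4. Its doses overlapped, and the difference of 0.36 did not pass (limma adjusted p = 0.205), while without ZnO 16 replicates 2 and 3 it was 0.67 and passed (limma adjusted p = 0.0314). Rab31, which moves cargo between the Golgi and endosomes, overlapped fully: its values were 2.99, 2.31, 2.34 and 2.86 at ZnO 16 and 2.81, 2.58, 2.61 and 2.71 at ZnO 4, a difference of -0.05 (SE 0.17).

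Rab20 carried the largest difference of the family, so its promoter is shown with those of the other Rab genes that passed with a difference of at least 1 and had an entry: 4 of the 5, chosen after their values were seen. Each run is the RefSeq window of assembly GRCr8 from 250 bases before to 50 bases after the gene start, read 5′ to 3′ on the strand of the gene. Capitals mark matches, on either strand, to the E-box CACGTG, the hypoxia response core ACGTG that lies inside it, AP-1 (TGANTCA), CRE (TGACGTCA) or the C/EBP-ATF motif TGATGNAA. The windows are chr16:84721177-84721476 (plus strand) for Rab20, chr10:15440610-15440909 (minus strand) for Rab40c, chr4:121826462-121826761 (minus strand) for Rab43 and chr6:32039505-32039804 (minus strand) for Rab10.
Rab20: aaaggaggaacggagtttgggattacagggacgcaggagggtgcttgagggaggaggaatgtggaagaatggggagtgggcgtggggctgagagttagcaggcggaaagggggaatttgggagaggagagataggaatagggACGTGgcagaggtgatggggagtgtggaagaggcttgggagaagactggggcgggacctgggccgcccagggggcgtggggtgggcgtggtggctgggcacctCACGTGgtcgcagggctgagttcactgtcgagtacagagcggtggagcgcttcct
Rab40c: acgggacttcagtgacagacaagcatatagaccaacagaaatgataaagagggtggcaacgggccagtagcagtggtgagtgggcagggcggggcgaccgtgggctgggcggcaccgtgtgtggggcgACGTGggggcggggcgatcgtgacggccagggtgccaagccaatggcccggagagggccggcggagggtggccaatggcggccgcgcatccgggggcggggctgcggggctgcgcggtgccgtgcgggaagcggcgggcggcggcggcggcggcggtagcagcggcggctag
Rab43: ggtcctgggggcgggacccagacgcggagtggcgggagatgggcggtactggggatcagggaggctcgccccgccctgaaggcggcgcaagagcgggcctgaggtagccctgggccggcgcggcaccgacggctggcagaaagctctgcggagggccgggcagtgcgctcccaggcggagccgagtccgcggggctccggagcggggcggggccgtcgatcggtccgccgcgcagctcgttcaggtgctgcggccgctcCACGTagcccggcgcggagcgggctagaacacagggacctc
Rab10: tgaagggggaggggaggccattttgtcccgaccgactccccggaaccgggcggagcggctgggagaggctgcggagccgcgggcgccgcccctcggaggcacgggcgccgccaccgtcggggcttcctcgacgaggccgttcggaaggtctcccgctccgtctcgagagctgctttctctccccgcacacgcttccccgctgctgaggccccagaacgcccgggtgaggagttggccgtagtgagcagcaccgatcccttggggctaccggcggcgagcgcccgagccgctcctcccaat

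The Rab20 window holds CACGTG once, with its first base at position -5 from the gene start, and a separate ACGTG at -108. Rab40c has ACGTG at -122 and Rab43 has its reverse complement at 10, while the Rab10 window holds none of the 5 motifs. These letters are common. CACGTG is in 6.42% of the 33469 windows of the same length and ACGTG in 19.3%, while TGANTCA is in 7.33%, TGACGTCA in 1.83% and TGATGNAA in 3.98%. Of the 39 tested Rab genes 33 had a window, and 3 of those held CACGTG, 9 ACGTG, 3 TGANTCA, 1 TGACGTCA and 0 TGATGNAA. A looser pattern than the metal response core TGCRCNC (R being A or G), namely TGCNCNC, was searched too but is not capitalised. Its matches need not be that core. The looser pattern is in 49.6% of all windows, in 22 of the 33 Rab windows and, among the 4 printed here, in those of Rab40c, Rab10 and Rab43. The matches of Rab40c (TGCCCAC) and Rab10 (TGCTCAC) are not the core itself.

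**Figure D2:**
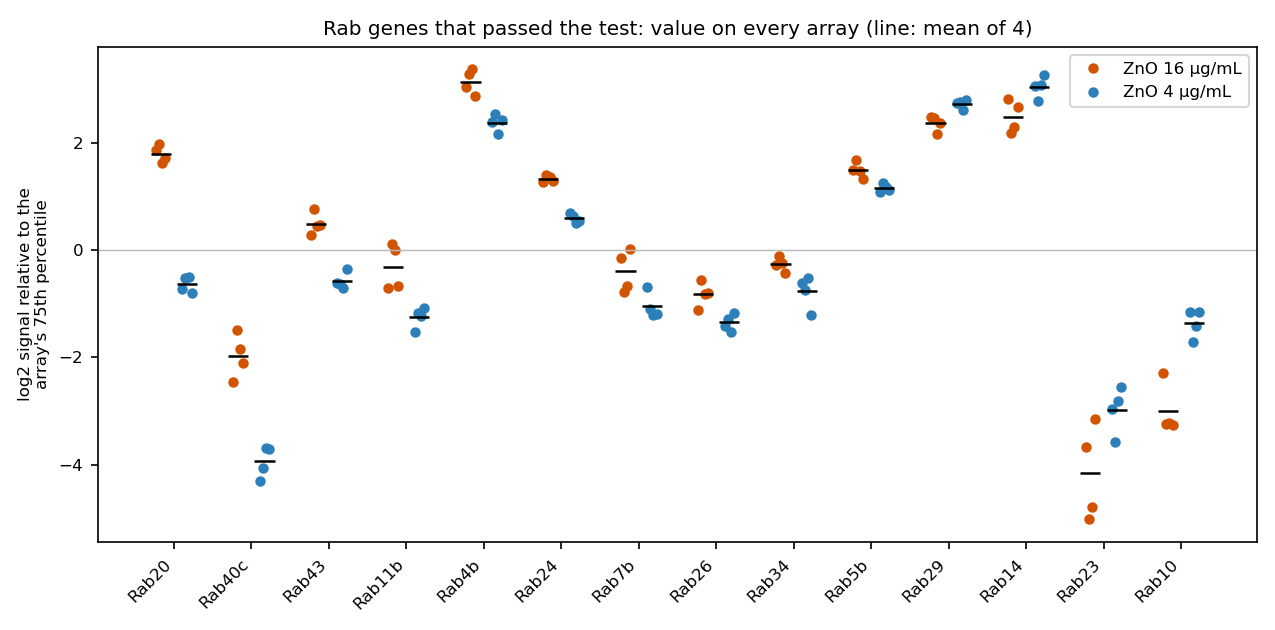
Log2 signal relative to the array's 75th percentile (y axis) on each of the 8 arrays for the 14 Rab genes that passed, ordered by difference, with ZnO 16 (orange) left of ZnO 4 (blue) and a line at each mean of 4 arrays. The doses are separated for 11 of them and overlap for Rab7b, Rab14 and Rab23.

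Late endosome and lysosome Rabs were split. Of 8 on the array 6 were tested, Rab24 and Rab7b rose, Rab29 fell, and the median difference was -0.25. Rab24, which takes part in autophagy, was at 1.28, 1.41, 1.37 and 1.29 at ZnO 16, against 0.70, 0.64, 0.50 and 0.54 at ZnO 4. This was one of the tightest separations in the family, 0.74 (SE 0.11, limma adjusted p = 0.000463), and the call was kept whichever array was left out. Rab7b, which directs transport between late endosomes and the Golgi, was at -0.14, -0.77, -0.66 and 0.03 at ZnO 16, against -0.68, -1.09, -1.20 and -1.19 at ZnO 4. The highest ZnO 4 array lay above the lowest ZnO 16 array, and the difference was 0.66 (SE 0.21, limma adjusted p = 0.0294). A second Rab7b probe gave 0.63 and also passed, but the gene's call was lost when ZnO 16 replicate 1 or 4, or when ZnO 4 replicate 2, 3 or 4, was dropped. Without ZnO 16 replicates 2 and 3 it was 0.99 (limma adjusted p = 0.0046).

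Rab7a, the main Rab of late endosomes, through which they fuse with lysosomes, was at -2.08, -1.65, -2.07 and -1.98 at ZnO 16, against -0.83, -0.86, -0.69 and -3.00 at ZnO 4. Replicates 1 to 3 of ZnO 4 were above every ZnO 16 array, and replicate 4 was below all of them. The difference of -0.60 (SE 0.45) did not pass (limma adjusted p = 0.306). Without that array it was -1.15 and passed (limma adjusted p = 0.00069), so the reading of Rab7a turns on 1 array. Its spot does not lie in the low-signal area of that array, and the difference was still -0.60 with those areas masked. Set against Rab7b on the same array, the log2 ratio of Rab7a to Rab7b was -1.94, -0.88, -1.41 and -2.01 at ZnO 16, against -0.15, 0.23, 0.51 and -1.81 at ZnO 4. That ratio differed by -1.26 between the doses, with an exact permutation p of 0.0857 and 0.171 after adjustment over 8 pairs.

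Rab29, a partner of the kinase LRRK2, was at 2.49, 2.46, 2.17 and 2.37 at ZnO 16, against 2.75, 2.77, 2.63 and 2.81 at ZnO 4. All 4 ZnO 16 values were lower, by 0.36 on average (difference -0.36, SE 0.11, limma adjusted p = 0.0256). The call was lost when ZnO 16 replicate 3, or when ZnO 4 replicate 1, 2 or 4, was dropped. Rab29 and Rab7b lie on chromosome 13 of GRCr8 with 3 protein-coding genes between them, and they moved in opposite directions. Rab9a, which serves the return of mannose 6-phosphate receptors to the Golgi, was at -3.73, -4.65, -4.35 and -3.81 at ZnO 16, against -3.04, -3.78, -3.04 and -3.56 at ZnO 4. ZnO 4 replicate 2 reached into the ZnO 16 range, and the difference of -0.78 (SE 0.30) missed the threshold (limma adjusted p = 0.0606), although with normexp, another background correction followed by quantile normalization, it was -0.27 and passed (limma adjusted p = 0.0433). Rab32, of lysosome-related organelles, differed by -0.13 (SE 0.14, limma adjusted p = 0.486).

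**Figure D3:**
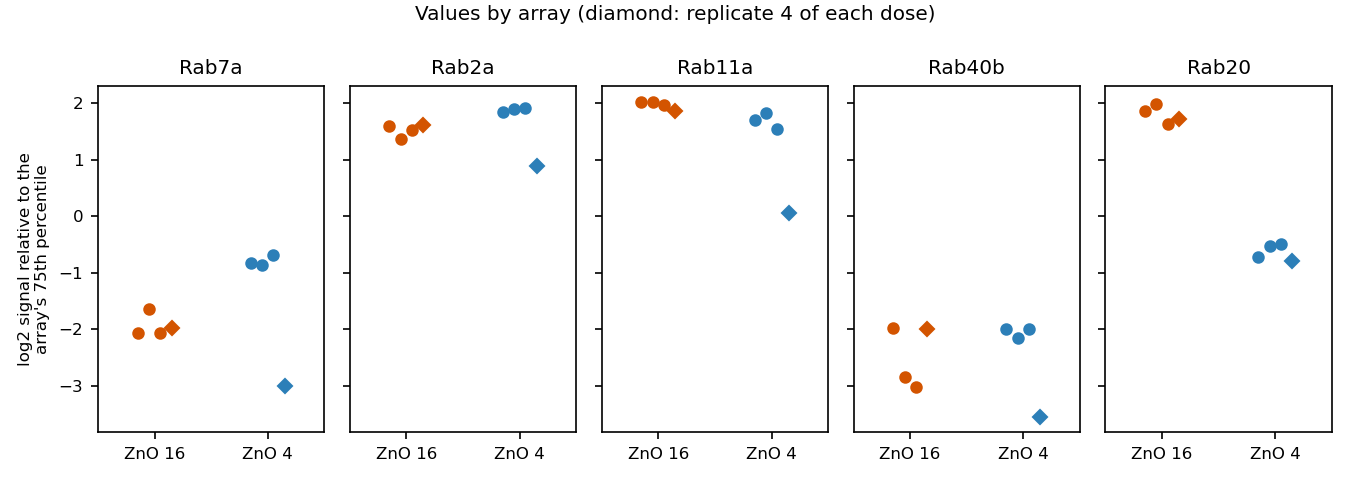
Log2 signal relative to the array's 75th percentile (y axis, shared) of 5 Rab genes on each array, ZnO 16 left of ZnO 4, with replicate 4 of each dose as a diamond. ZnO 4 replicate 4 lies apart from its group for Rab7a (-3.00), Rab2a (0.88), Rab11a (0.06) and Rab40b (-3.55) and within it for Rab20 (-0.79).

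Recycling endosome Rabs were the group with the most tested members, 12 of 14, with 2 higher, 2 lower and a median of -0.06. Rab10, which brings vesicles such as those of the glucose transporter Glut4 to the plasma membrane, was at -2.28, -3.24, -3.23 and -3.26 at ZnO 16, against -1.14, -1.70, -1.42 and -1.16 at ZnO 4. All ZnO 16 arrays were lower, and 3 of them lay within a few hundredths of each other with replicate 1 above them. The difference was -1.65 (SE 0.25, limma adjusted p = 0.000678). The probe was well above background on 1 of 4 arrays at ZnO 16, against 4 of 4 at ZnO 4, so it entered the test through ZnO 4 alone. It passed whichever array was left out, ranging from -1.89 to -1.56, and was -0.93 with normexp. The filter was not applied anew when arrays were left out, so those runs do not test that entry.

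Rab11b, of the slow recycling route, was at -0.70, 0.11, -0.00 and -0.66 at ZnO 16, against -1.52, -1.17, -1.23 and -1.08 at ZnO 4. The ZnO 16 arrays fell into a higher and a lower pair, both above all ZnO 4 arrays, and the difference was 0.94 (SE 0.21, limma adjusted p = 0.00604). The higher pair was replicates 2 and 3, and without them it was 0.57 (limma adjusted p = 0.0332). Rab11a, its close relative, was at 2.01, 2.02, 1.96 and 1.85 at ZnO 16, against 1.70, 1.82, 1.54 and 0.06 at ZnO 4. The doses did not overlap, ZnO 4 replicate 4 was far below the rest, and its Rab11a spot lies in the low-signal area of that array. With all arrays the difference was 0.68 (limma adjusted p = 0.118), and with the low-signal areas masked it was 0.28 (limma adjusted p = 0.103). With normexp it was 0.97 and passed (limma adjusted p = 0.0351). A second, dimmer Rab11a probe, well above background on 4 of 4 arrays at each dose, gave -0.28 and did not pass, so the direction depends on the probe.

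Rab4b, of the fast recycling route, was at 3.05, 3.30, 3.37 and 2.87 at ZnO 16, against 2.40, 2.54, 2.17 and 2.44 at ZnO 4. Every ZnO 16 value was higher, by 0.76 (SE 0.14, limma adjusted p = 0.00199), and a second probe gave 0.84 and passed too. Rab4a differed by 0.08 (SE 0.15, limma adjusted p = 0.692). The log2 ratio of Rab4a to Rab4b within an array was -2.29, -2.86, -2.99 and -2.23 at ZnO 16, against -1.83, -1.93, -2.00 and -1.87 at ZnO 4. All ZnO 16 ratios were lower, and the difference of -0.68 had an exact permutation p of 0.0286, the smallest that the 70 assignments of 4 against 4 arrays allow. After adjustment over 8 pairs it was 0.114.

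Rab14, which links the Golgi with early endosomes and phagosomes, was at 2.82, 2.18, 2.31 and 2.68 at ZnO 16, against 3.07, 2.80, 3.09 and 3.27 at ZnO 4. Only ZnO 16 replicate 1 reached into the ZnO 4 range, and the difference was -0.56 (SE 0.17, limma adjusted p = 0.0209). Of its 3 probes 2 passed, at -0.56 and -0.83, and the other gave -0.15. The call was lost when ZnO 16 replicate 2 or 3, or when ZnO 4 replicate 3, was dropped, and without both of those ZnO 16 arrays the difference was -0.31 (limma adjusted p = 0.146). The other 7 tested members did not pass. They were Rab8a (-0.20) and Rab8b (-0.38), which serve exocytosis and cilia, Rab13 (-0.35), known from tight junctions, Rab12 (-0.49), which sends transferrin receptor to lysosomes, Rab35 (0.20) of fast recycling, Rab25 (0.18), known from epithelia, and Rab4a. For Rab35 all 4 ZnO 16 arrays, at 3.17 to 3.34, were above the ZnO 4 arrays, at 3.05 to 3.11, with a limma adjusted p of 0.123. For Rab13 they were all below, at 0.07 to 0.64 at ZnO 16 against 0.68 to 0.82 at ZnO 4, with a limma adjusted p of 0.0696.

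Among the ER and Golgi Rabs 9 of 15 were tested, 2 rose and none fell, with a median of -0.11. Rab43, a Golgi Rab, was at 0.29, 0.76, 0.45 and 0.48 at ZnO 16, against -0.61, -0.63, -0.70 and -0.35 at ZnO 4. The doses were well apart, with a difference of 1.07 (SE 0.14, limma adjusted p = 0.000271), a 2.10-fold higher signal. Rab34, a Golgi Rab known for positioning lysosomes, was at -0.27, -0.10, -0.23 and -0.42 at ZnO 16, against -0.60, -0.73, -0.51 and -1.21 at ZnO 4. Its ranges did not meet, and the difference was 0.51 (SE 0.17, limma adjusted p = 0.0352), a call lost when ZnO 16 replicate 1, 2 or 3, or when ZnO 4 replicate 2 or 4, was dropped.

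Rab6a, of retrograde traffic through the Golgi, was at -3.43, -4.32, -3.21 and -3.63 at ZnO 16, against -2.95, -3.73, -2.70 and -2.89 at ZnO 4. The doses overlapped, and the difference of -0.58 (SE 0.31) did not pass (limma adjusted p = 0.164). Rab33b, a Golgi Rab that binds the autophagy protein Atg16l1, was at -1.39, -1.61, -1.72 and -1.16 at ZnO 16, against -0.94, -1.29, -0.91 and -1.25 at ZnO 4. Here too the ranges met, with a difference of -0.37 (limma adjusted p = 0.109). Rab2a, which acts between the ER and the Golgi, differed by -0.11 (limma adjusted p = 0.716) with ZnO 4 replicate 4 at 0.88 and the other 3 arrays of that dose at 1.83 to 1.91. Without that array the difference was -0.36 and passed (limma adjusted p = 0.0356).

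Rab1a and Rab1b, which carry traffic from the ER to the Golgi, gave 0.21 and -0.33 with the brightest probe of each, and neither passed. In each case a second probe passed in the other sense or with a larger size, at 0.87 for Rab1a and 0.79 for Rab1b, so the direction for Rab1b depends on the probe. With the mean of all kept probes Rab1a was 0.54 and passed (limma adjusted p = 0.0198), and without ZnO 16 replicates 2 and 3 it was 0.44 and passed (limma adjusted p = 0.0341). Rab18, known from lipid droplets, had 3 probes at 0.35, -0.33 and -0.93, and the dimmest of them passed. The remaining member, Rab2b, gave -0.29 and -0.64 with its 2 probes, neither of which passed. Over the 11 Rab genes with several measured probes, both or all probes passed in 1 direction for Rab4b and Rab7b. When each probe was fitted as its own feature, 41.7% of all probes passed.

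**Figure D4:**
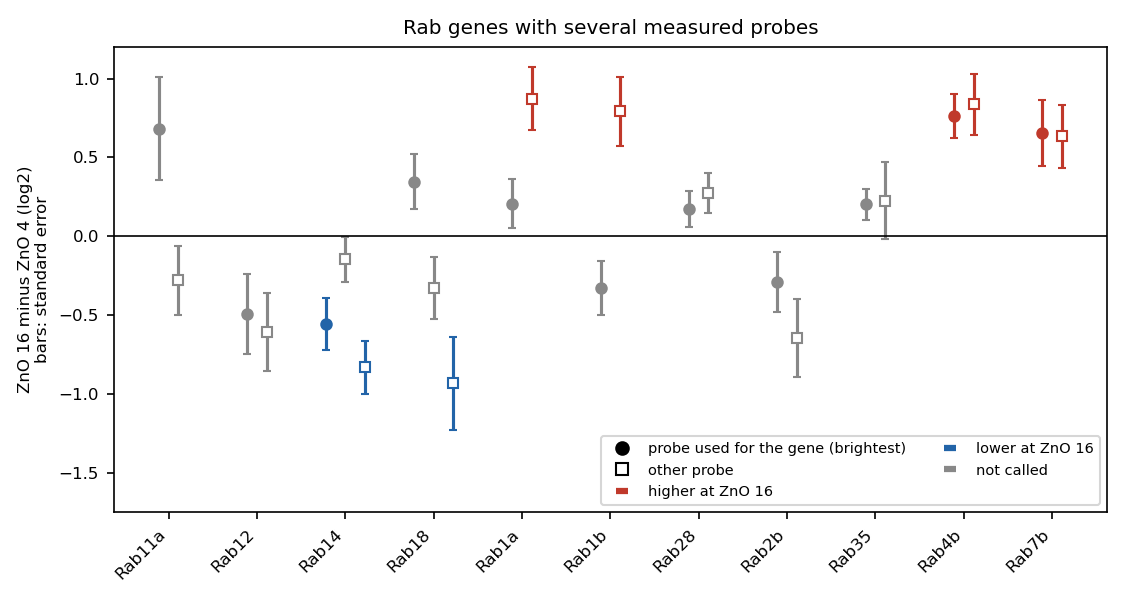
Difference between ZnO 16 and ZnO 4 (log2, y axis, bars for the standard error) for each measured probe of the 11 Rab genes with several, the brightest as a filled circle and the others as open squares, red and blue where limma's test passed. The probes of Rab4b and Rab7b lie together above 0, while those of Rab11a, Rab18 and Rab1b lie on both sides of 0.

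Of the Rabs of regulated secretion 3 of 7 were tested, 1 rose and none fell, with a median of 0.27. Rab26, of secretory granules, was at -1.11, -0.56, -0.82 and -0.80 at ZnO 16, against -1.41, -1.29, -1.52 and -1.16 at ZnO 4. The ranges lay next to each other without overlap, with a difference of 0.52 (SE 0.16, limma adjusted p = 0.0237), and the call was lost when ZnO 16 replicate 2, or when ZnO 4 replicate 1 or 3, was dropped. Rab27a, which docks secretory granules and exosome-bearing endosomes at the plasma membrane, was at -0.44, -1.31, -1.03 and -0.24 at ZnO 16, against -0.06, -0.34, -0.14 and -0.03 at ZnO 4. All ZnO 16 arrays but replicate 4 were lower than all ZnO 4 arrays, and the difference of -0.61 (SE 0.23) stood just outside the threshold (limma adjusted p = 0.0509). It passed in several other settings, as with the low-signal areas masked (limma adjusted p = 0.0436). Rab3d, of secretory granules, was at -1.94, -1.43, -1.49 and -2.19 at ZnO 16 and -2.15, -2.08, -1.90 and -2.02 at ZnO 4, which overlapped, and differed by 0.27 (limma adjusted p = 0.294).

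The last group, of cilium and other Rabs, held the second largest rise and the second largest fall among the Rab genes that passed. All 4 of its members were tested, and the median difference was 0.06. Rab40c, one of the Rabs with a SOCS box that joins a Cullin5 ubiquitin ligase, was at -2.46, -1.49, -1.84 and -2.11 at ZnO 16, against -4.30, -4.06, -3.68 and -3.71 at ZnO 4. Every ZnO 16 array was more than 1 unit above every ZnO 4 array. The difference was 1.97 (SE 0.26, limma adjusted p = 0.000239), a 3.91-fold higher signal, with the probe well above background on 4 of 4 arrays at ZnO 16 and 3 of 4 at ZnO 4. With normexp it was 0.59 and still passed. Rab40b, of the same subfamily, was at -1.98, -2.86, -3.03 and -2.01 at ZnO 16, against -1.99, -2.16, -2.00 and -3.55 at ZnO 4. The ranges overlapped, and it differed by -0.04 (limma adjusted p = 0.937). The log2 ratio of Rab40b to Rab40c differed by -2.01 between the doses, the largest among the 8 pairs of close relatives, with an exact permutation p of 0.0571 and 0.152 after adjustment.

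Rab23, a brake on Hedgehog signalling at the cilium, was at -3.68, -5.02, -4.78 and -3.16 at ZnO 16, against -2.96, -3.58, -2.81 and -2.55 at ZnO 4. The groups overlapped, and the probe was well above background on 2 of 4 arrays at ZnO 16 and 3 of 4 at ZnO 4. It too entered the test through ZnO 4 alone. The difference was -1.18 (SE 0.42, limma adjusted p = 0.0453), and it no longer passed when ZnO 16 replicate 2 or 3, or ZnO 4 replicate 1, 3 or 4, was dropped. It was -0.44 without both of those ZnO 16 arrays (limma adjusted p = 0.317) and -0.34 with normexp (limma adjusted p = 0.0458). The probe used matches a predicted Rab23 transcript. A second probe, of a curated Rab23 transcript, was well above background on 1 of 4 arrays at ZnO 16 and 0 of 4 at ZnO 4. That probe was not tested, so the fall rests on the predicted transcript alone. Rab28, of photoreceptor cilia, was at 1.72, 1.69, 1.56 and 1.82 at ZnO 16, against 1.67, 1.41, 1.53 and 1.47 at ZnO 4. These values overlapped, with a difference of 0.17 (limma adjusted p = 0.245).

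The 15 Rab genes on the array that were not tested were Rab5a, Rab3a, Rab3b, Rab3c, Rab6b, Rab9b, Rab15, Rab17, Rab19, Rab27b, Rab30, Rab33a, Rab36, Rab38 and Rab39a. Their probes were not well above background on 3 arrays of either dose, so these data give them no difference. Of the 39 tested, 34 were well above background on all 8 arrays.

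Across the 8 pairs of close relatives (Rab1a and Rab1b, Rab2a and Rab2b, Rab4a and Rab4b, Rab5b and Rab5c, Rab7a and Rab7b, Rab8a and Rab8b, Rab11a and Rab11b, Rab40b and Rab40c) no within-array ratio passed after adjustment. At this number of arrays at least 5 of the 8 pairs would need the smallest possible p for any to pass, so a single separated pair could not, and 2 pairs reached it. Before adjustment, Rab4a to Rab4b (-0.68) and Rab5b to Rab5c (0.31) had the smallest exact permutation p that the design allows, 0.0286, and each had an adjusted value of 0.114. The Rab5b to Rab5c ratio was -0.33, -0.25, -0.13 and -0.53 at ZnO 16, against -0.62, -0.62, -0.61 and -0.64 at ZnO 4. All 4 ZnO 16 ratios were higher, and the ZnO 4 ratios were nearly equal to each other, but with normexp Rab5b minus Rab5c differed by -0.042, the other direction.

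**Figure D5:**
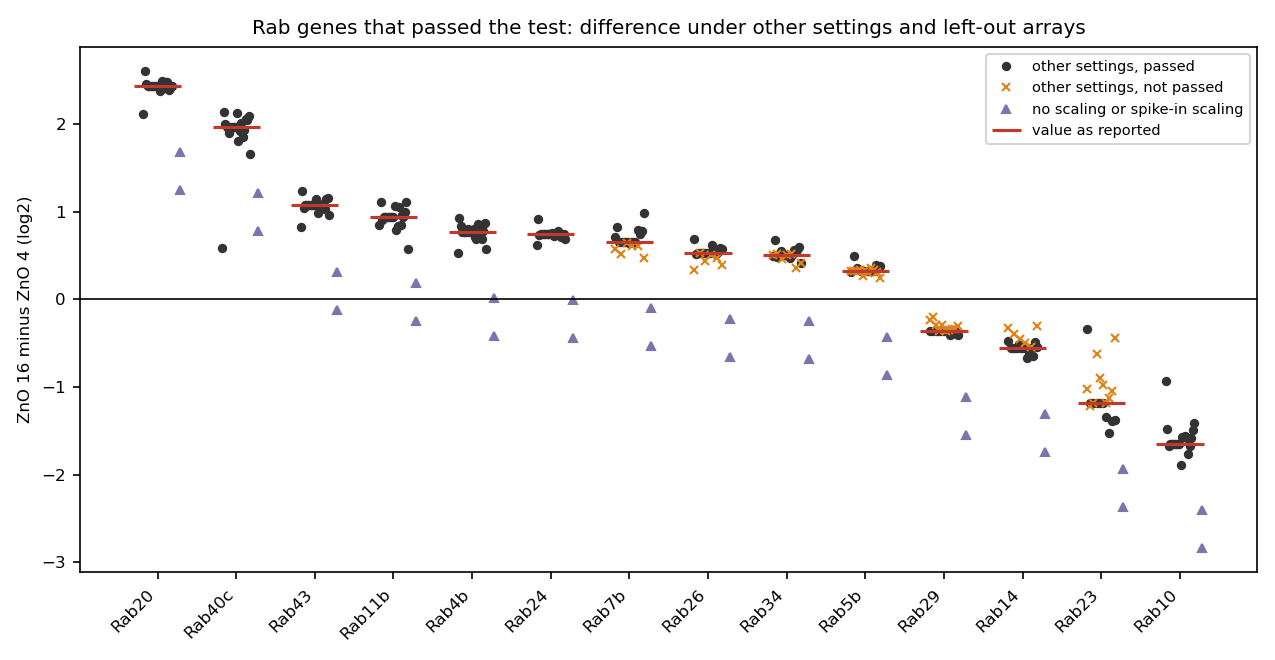
Difference between ZnO 16 and ZnO 4 (log2, y axis) for the 14 Rab genes that passed, as reported (red line), under the other settings and left-out arrays (black dots passed, orange crosses did not) and without scaling or with the spike-in probes held constant (purple triangles, upper and lower). Rab20, Rab40c, Rab43, Rab11b, Rab4b, Rab24 and Rab10 have no orange cross. Of these, Rab40c and Rab10 were not tested in the setting limited to probes well above background on every array.

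The call was kept for 7 of the 14 Rab genes in every setting that scales arrays to their own probes and in which they were tested. These were Rab20, Rab40c, Rab43, Rab11b, Rab4b, Rab24 and Rab10. Of these, Rab10 and Rab40c were not tested in the setting limited to probes well above background on every array. The Rab10 probe was so on 1 of 4 arrays at ZnO 16 and entered through ZnO 4 alone. The filter was not applied anew when arrays were left out, so the kept Rab10 call does not test that entry. For Rab5b, Rab34, Rab7b, Rab26, Rab14, Rab29 and Rab23 at least 1 left-out array ended the call. Other settings ended it too: normexp for Rab14 (-0.33), Rab26 (0.33) and Rab29 (-0.23), median scaling for Rab14 (-0.39), Rab29 (-0.20) and Rab23 (-1.02), quantile normalization for Rab29 (-0.29) and Rab23 (-1.22), and the floor on dim signals for Rab23 (-0.62). Leaving out both arrays numbered 4 ended it for Rab7b (0.47) and Rab29 (-0.34), and leaving out ZnO 16 replicates 2 and 3 ended it for Rab5b (0.24), Rab34 (0.42), Rab26 (0.39), Rab14 (-0.31), Rab29 (-0.31) and Rab23 (-0.44). Without the filter on dim probes, which leaves more features to adjust over, Rab5b, Rab34, Rab26, Rab29 and Rab23 no longer passed.

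The machinery that loads, anchors and reads Rabs was measured through 9 lists, of which 94 genes were tested. In these, 16 rose and 15 fell, with a median of 0.08. The lists were assembled with earlier results of these data known, and 41.7% of all features passed. With the spike-in probes held constant 1 rose and 61 fell.

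Prenylation and GDI genes had 1 rise and 3 falls among 7 tested, with a median of -0.10, and the subunits of the enzyme moved in opposite directions. Rabggtb, the catalytic beta subunit of Rab geranylgeranyl transferase, was at -1.10, -1.48, -1.64 and -1.27 at ZnO 16, against 0.46, 0.37, 0.49 and 0.25 at ZnO 4. All ZnO 16 arrays were lower by more than 1 unit, with a difference of -1.77 (SE 0.15, limma adjusted p = 1.2e-05). Rabggta, the alpha subunit, was at -0.52, 0.04, -0.06 and -1.40 at ZnO 16, against -2.15, -2.49, -2.27 and -5.18 at ZnO 4. ZnO 4 replicate 4 was again far below, and the difference was 2.54 with it (SE 0.62, limma adjusted p = 0.00835) and 1.82 without it (limma adjusted p = 0.00163). Without ZnO 16 replicates 2 and 3 it was 2.07 and did not pass (limma adjusted p = 0.0692). With normexp the subunits gave -1.15 for Rabggtb and 1.54 for Rabggta.

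Chm, which encodes the Rab escort protein that presents Rabs to that enzyme, was at -2.37, -1.41, -1.60 and -3.31 at ZnO 16, against -0.56, 0.06, -0.58 and -0.55 at ZnO 4. Its doses did not overlap, and it fell by 1.76 (difference -1.76, SE 0.37, limma adjusted p = 0.004). Rabif, also known as Mss4, differed by -0.61 and passed by a small margin (limma adjusted p = 0.0454). Its 3 probes ran from -0.64 to 0.28, so the direction depends on the probe, their mean gave -0.32 (limma adjusted p = 0.229), and without ZnO 16 replicates 2 and 3 it was -0.22. Gdi2, a GDI that keeps Rabs soluble, differed by -0.10 (limma adjusted p = 0.544).

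Exchange factors had 5 rises and 3 falls among 17 tested, with a median of 0.21. Mon1a, part of the exchange factor for Rab7, rose by 0.93, Rin3, which acts on Rab5, by 0.90 and Sbf1 by 0.88. Dennd1c (-0.69), Dennd6a (-0.51) and Dennd2d (-0.46), all DENN-domain proteins, fell. With normexp Rin3 was 0.57, with median scaling Dennd2d was -0.30, and with both arrays numbered 4 left out Dennd1c was -0.45. Without ZnO 16 replicates 2 and 3, Rin3 was 0.36, Sbf1 0.40, Dennd6a -0.32 and Dennd2d -0.45, and none of these passed. In the TRAPP complex, which loads Rab1, 2 rose and 2 fell of 11, with a median of 0.14. Trappc5 differed by 1.79 with ZnO 4 replicate 4 at -0.55 and by 1.23 without that array, and its second probe gave 0.13. The mean of its probes was 0.96, and without ZnO 16 replicates 2 and 3 it was 1.51 and did not pass (limma adjusted p = 0.0798). Trappc1 rose (0.45), and Trappc13 (-0.49) and Trappc3 (-0.36) fell, although Trappc3 turned to 0.11 with normexp and was -0.19 with median scaling. Trappc13 was -0.20 with normexp, -0.32 with median scaling and -0.24 without ZnO 16 replicates 2 and 3, where Trappc1 was 0.19.

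GTPase-activating proteins had 2 rises and 2 falls among 16 tested, with a median of 0.10. Tbc1d10a rose by 1.25 (SE 0.14) and Tbc1d20, which acts on Rab1, by 0.46. Tbc1d14, which binds Rab11 and regulates autophagy, differed by -1.24 (SE 0.16) and Rabgap1 by -0.96. With normexp Tbc1d10a was 0.82 and Rabgap1 -0.55, and Rabgap1 was -0.58 without ZnO 16 replicates 2 and 3, where Tbc1d20 no longer passed.

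Among effectors, which bind the active Rab, the late endosome and lysosome list had 2 rises and 3 falls of 17, with a median of -0.05. Fyco1, which links Rab7 to kinesin, was at -1.20, -2.10, -1.76 and -1.39 at ZnO 16, against -0.26, -0.58, -0.54 and -0.20 at ZnO 4. The doses were apart, with a difference of -1.22 (SE 0.21, limma adjusted p = 0.00119). Vps33b, at 0.499 times its ZnO 4 signal and a relative of a subunit of the HOPS tethering complex, and Tgfbrap1 (-0.57), of the CORVET tether, also fell, while Plekhm2 (0.77) and Vps11 (0.63), a core subunit of both tethers, rose. With normexp Vps33b was -0.59 and Plekhm2 0.45, and without ZnO 16 replicates 2 and 3 Plekhm2 was 0.50 and Tgfbrap1 -0.36. In the early endosome list Rabep1, or rabaptin-5, an effector of Rab5, rose by 0.99 (SE 0.16), with a second probe at 0.36, and none fell of 8, with a median of -0.10. With normexp Rabep1 was 0.52.

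In the recycling and secretion list Ehbp1l1, an effector of Rab8 and Rab10, rose by 1.07 (SE 0.15), and the exocyst subunit Exoc6 fell (-0.59), of 7 with a median of 0.11. With normexp Ehbp1l1 was 0.48, and without ZnO 16 replicates 2 and 3 Exoc6 was -0.47. In the Golgi list Gorasp1 rose (0.42) and Golga2, the matrix protein GM130, fell (-0.62), of 8 with a median of 0.04, and Gorasp1 was 0.25 without ZnO 16 replicates 2 and 3. Ppm1h, a phosphatase of Rabs phosphorylated by LRRK2, rose by 0.84. It was 1 of 3 in the list of Rab kinases and phosphatase, whose median was 0.35. Without ZnO 16 replicates 2 and 3 Ppm1h was 0.85 and did not pass (limma adjusted p = 0.0925).

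Of the 31 machinery genes that passed, 12 kept the call in every setting run that scales arrays to their own probes and in which they were tested, namely Rabggtb, Chm, Fyco1, Vps33b, Tbc1d10a, Tbc1d14, Ehbp1l1, Rabep1, Rabgef1, Madd, Mon1a and Vps11. Another 7 lost it in other settings only. These settings were median scaling for Rabgap1, Golga2, Exoc6 and Tgfbrap1, both arrays numbered 4 left out for Dennd1c, and ZnO 16 replicates 2 and 3 left out for Rabggta, Trappc5, Exoc6 and Tgfbrap1. The remaining 12 lost it when single arrays were dropped. All of them but Trappc3 also lost it with ZnO 16 replicates 2 and 3 left out together. For Rin3, Gorasp1, Tbc1d20 and Trappc1 the single arrays were ZnO 16 replicates 2 and 3 and ZnO 4 replicates 1, 2 and 3. For Plekhm2 they were ZnO 16 replicates 2 and 3 and ZnO 4 replicates 1 and 2, for Sbf1 ZnO 16 replicates 2 and 3 and ZnO 4 replicates 1 and 3, and for Ppm1h ZnO 16 replicates 1 and 3 and ZnO 4 replicate 1. Among those that fell, the arrays were ZnO 4 replicate 2 for Trappc3, ZnO 16 replicate 3 and ZnO 4 replicates 2, 3 and 4 for Dennd2d, and ZnO 16 replicates 2 and 3 and ZnO 4 replicates 1, 3 and 4 for Trappc13. For Dennd6a they were ZnO 16 replicates 1, 2 and 3 and ZnO 4 replicates 1, 3 and 4, and for Rabif ZnO 16 replicates 2 and 3 and each ZnO 4 array.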

How the data were processed

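RNA from 8 NR8383 cultures, 4 per ZnO dose, was labelled with Cy3 and hybridised to 1-colour Agilent arrays, per the labels' protocols. The authors deposited scanner output of Agilent Feature Extraction 11.0.1.1, per the file headers and the submitters' processing notes. Its processed signal is a linear intensity, background-subtracted within each array per the file headers, and the deposited values carry no scaling from array to array. The other deposited columns used were 0 or 1 flags.

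Spots flagged as non-uniform or as population outliers were set to missing, each array's log2 processed signals were centred on their 75th percentile, and spots of a probe were averaged. A probe entered if at either dose 3 or more of 4 arrays read it well above background, and the brightest kept probe stood for its gene. Accessions were named, without versions, through the RefSeq table of GRCr8 (21109 of 45598 probes, 46.3%), and its coordinates are printed for promoters only. Of the 70 Rab probes 67 match curated and 3 predicted transcripts.

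The test was limma (version 3.58.1 under R 4.3.3), two-sided, using lmFit and eBayes with trend. Adjusted p-values are Benjamini-Hochberg's with 0.05 as the limit. The fit was also run on simulated data with each gene drawn independently and no shared array effects. That run does not measure the error rate on these arrays. Alternatives were other scalings, normexp background correction with quantile normalization, other filters on dim or flagged spots, the mean of a gene's probes, eBayes without trend, masked low-signal areas, a replicate block and left-out arrays. Within-array ratios of close relatives went through an exact permutation test, two-sided. Each tested Rab gene is named. Values on each array are given for those that passed, for up to 4 per compartment by size of difference, and for Rab5a, Rab7a and Rab20, and lists of machinery name up to 3 genes per direction. The Rab members, compartments and lists were chosen with earlier results of these data known.

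Replicate numbers were not used to pair the arrays in the main test. Correlations of same-numbered deviations were 0.25, 0.40, -0.22 and -0.03. They were not set against those of differently numbered arrays, so they do not settle whether the numbers pair the arrays. The number of arrays limits the precision. Protein sequences were not used here.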

Additional observations from a re-analysis of the deposited data

Results flagged for a closer look

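In 78 sets of 4 arrays (39 Rab genes at 2 doses), 6 had 1 array whose gap to its nearest neighbour passed Dixon's critical value. Chance alone flags about 1 set in 20. Of these 6, 4 concern ZnO 4 replicate 4. That array read -3.00 for Rab7a (the other ZnO 4 arrays -0.86 to -0.69), 0.88 for Rab2a (1.83 to 1.91), 0.062 for Rab11a (1.54 to 1.82) and -3.55 for Rab40b (-2.16 to -1.99). Only the Rab11a spot of these lies in the low-signal area of the array. Without that array the difference, ZnO 16 minus ZnO 4, was -1.15 for Rab7a, -0.36 for Rab2a, 0.28 for Rab11a and -0.42 for Rab40b. The 2 remaining sets were Rab10, with ZnO 16 replicate 1 at -2.28 and the other ZnO 16 arrays at -3.26 to -3.23, and Rab4a, with ZnO 4 replicate 3 at 0.17 and the other ZnO 4 arrays at 0.57 to 0.61.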

How the results depend on the processing

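Most counts held within 1.5 times, and the exceptions follow, as ZnO 16 minus ZnO 4 on the log2 scale. Over all features 2669 were higher and 2943 lower, against 3405 and 1980 with median scaling, 229 and 4417 without scaling and 157 and 8628 (8785 in all) with spike-in scaling. Scaling sets the centre, and the cause of these shifts was not tested. With median scaling 1 Rab gene fell and the Rab median was 0.18, while the machinery lists had 25 rises and 6 falls. Without scaling these were 2 Rab rises, 10 falls, a median of -0.74, and 1 machinery rise and 26 falls. With spike-in scaling there were 1 Rab rise, 24 falls, a median of -1.17, and 1 machinery rise and 61 falls. Without the filter on dim probes 2 Rab genes fell and the median was 0.092, with 16.7% of Rab genes and 12.0% of all features passing. On probes well above background on all 8 arrays the median was 0.13. With both arrays numbered 4 left out, an alternative chosen after seeing the data, 7 Rab genes fell. In that setting 41.0% of the tested Rab genes passed, near the 41.8% of all features, and 2683 features were lower. With ZnO 16 replicates 2 and 3 left out, also chosen after seeing the data, 1 Rab gene fell, the Rab median was 0.15 and 9 machinery genes rose. The replicate block gave 9 rises and 5 falls, without Rab5b (0.33) and with Rab27a (-0.61). With it 35.9% of Rab genes and 41.0% of all features passed. Without trend in eBayes Rab5b did not pass either.

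Leaving out 1 array at a time gave 7 to 9 Rab rises, 1 (without ZnO 16 replicate 3) to 7 (without ZnO 16 replicate 1) falls, Rab medians of -0.0020 to 0.14, 9 to 22 machinery rises, 11 to 17 machinery falls and 4423 to 5576 features that passed.

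Signs turned for the following differences. With median scaling: Rab31 0.12, Rab2a 0.059, Rab32 0.040 and Rab40b 0.12. With quantile normalization: Rab31 0.031. With normexp: Rab2a 0.13, Rab21 -0.035, Rab3d -0.018 and Rab40b 0.0087, and the pairs Rab11a minus Rab11b 0.13, Rab5b minus Rab5c -0.042 and Rab8a minus Rab8b -0.48. With the mean of all kept probes: Rab1b 0.23 and Rab18 -0.31. With both arrays numbered 4 left out: Rab5c -0.0075, and Rab2a minus Rab2b -0.10. With ZnO 16 replicates 2 and 3 left out: Rab31 0.25, Rab3d -0.029 and Rab40b 0.43, and the pairs Rab11a minus Rab11b 0.085 and Rab2a minus Rab2b -0.014. Without scaling: Rab35 -0.55, Rab1a -0.55, Rab5c -0.74, Rab11a -0.072, Rab28 -0.58, Rab5b -0.43, Rab18 -0.41, Rab24 -0.012, Rab4a -0.68, Rab34 -0.25, Rab7b -0.10, Rab26 -0.23, Rab21 -0.39, Rab3d -0.48 and Rab25 -0.58. With spike-in scaling: Rab35 -0.98, Rab1a -0.98, Rab4b -0.42, Rab5c -1.17, Rab11a -0.51, Rab28 -1.02, Rab5b -0.86, Rab18 -0.84, Rab24 -0.44, Rab4a -1.11, Rab43 -0.12, Rab34 -0.68, Rab7b -0.53, Rab11b -0.25, Rab26 -0.66, Rab21 -0.82, Rab3d -0.91 and Rab25 -1.01. Leaving out arrays in turn, Rab31 ranged from -0.17 to 0.055, Rab40b from -0.42 to 0.15, Rab4a from -0.026 to 0.14, Rab5c from -0.029 to 0.080, Rab2a minus Rab2b from -0.13 to 0.36, Rab8a minus Rab8b from -0.017 to 0.32.

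Signal over background limits the dim genes: 15 Rab genes were not tested, Rab10 was well above background on 1 of 4 arrays at ZnO 16, and Rab23 on 2 of 4. The dose effect and those of slide, scanning and passages cannot be told apart.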
